A study of Mus musculus with 4 samples.

Results

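The 10 genes of the mouse Cyp2c family described here, of 50584 gene symbols counted, were compared in liver between DBA/2J and C57BL/6J mice. They were chosen by symbol and are Cyp2c29, Cyp2c37, Cyp2c38, Cyp2c39, Cyp2c40, Cyp2c44, Cyp2c50, Cyp2c54, Cyp2c68 and Cyp2c69. DBA/2J and C57BL/6J are inbred laboratory strains. Polyadenylated RNA was sequenced from 2 DBA/2J and 2 C57BL/6J livers, all from 14-week-old males labelled wild type and fed chow. The labels give no treatment and name no batch. The series title concerns a defect of the malonyl-CoA decarboxylase gene in DBA/2J, and the Cyp2c genes were compared between the same livers. The series design gives 2 mice per strain, and each library was taken as 1 mouse.

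Cyp2c enzymes are cytochrome P450 monooxygenases of the endoplasmic reticulum, most abundant in hepatocytes. They oxidise drugs, steroids, retinoids and polyunsaturated fatty acids, and several turn arachidonic acid into epoxides and hydroxy acids that act as lipid mediators. They take electrons from cytochrome P450 oxidoreductase (Por) and, for some reactions, from cytochrome b5 (Cyb5a). Their genes arose by repeated duplication and stand side by side on chromosome 19, and the nuclear receptors CAR and PXR and the factor HNF4 alpha are known to drive members of the family in liver.

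Total counts were between 48096706 and 52520737 per library. Replicates of both strains differed by more than counting noise (chi-square over its degrees of freedom 20.5 in DBA/2J and 84.7 in C57BL/6J). The 7 hepatocyte markers, albumin among them, summed to 84868 to 89893 CPM in DBA/2J and 87932 to 101248 CPM in C57BL/6J. CPM stands for counts scaled to library size multiplied by the TMM factor of that library. It therefore differs from counts scaled to the total counts alone.

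The copies other than Cyp2c44 lie between Cyp2c29 (chr19:39269405-39330713) and Cyp2c50 (chr19:40089688-40113950), and Cyp2c44 lies apart at chr19:44005022-44029208 (GRCm38, as in the files). By their coding sequence in GENCODE they formed 3 groups of close copies plus Cyp2c44. Identity was 89.1% to 98.1% in the 9 pairs within the groups Cyp2c29/38/39, Cyp2c37/50/54 and Cyp2c40/68/69, and 61.7% to 83.1% in the 36 pairs between groups. Cyp2c67, a neighbour that is not among the 10 genes, was 97.7% identical to both Cyp2c40 and Cyp2c69 and 97.1% to Cyp2c68. Cyp2c44, which current annotation names Cyp2c23, was at most 66.9% identical to any other copy compared.

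**Figure D1:**
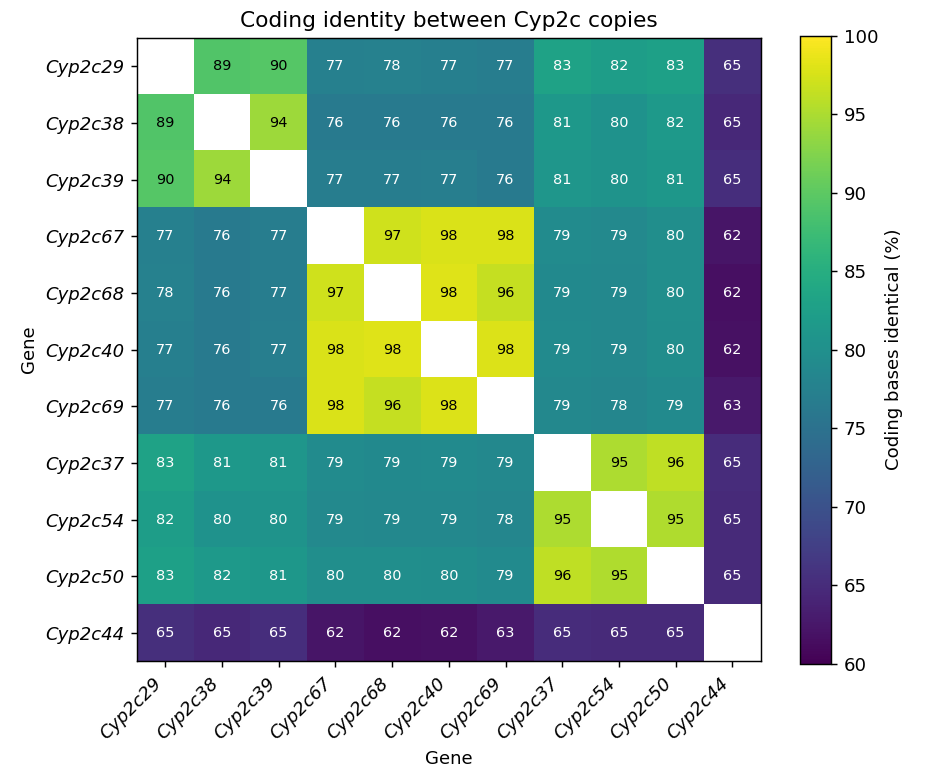
Percentage of identical coding bases between each pair of the 10 Cyp2c copies and Cyp2c67, with genes in chromosome 19 order on both axes and the colour scale starting at 60%. The blocks of Cyp2c29/38/39, Cyp2c40/67/68/69 and Cyp2c37/54/50 stand out at 89.1% or more, and Cyp2c44 has no close copy.

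How alike the copies are at the length of a sequencing read is shown by the first 100 coding bases of the Cyp2c40 group, each within 1 exon, from GENCODE on GRCm38. Capitals mark bases that differ from Cyp2c40. For Cyp2c40 the window begins 87 bases into the annotated coding part, where it aligns with the start codon of the other copies.
Cyp2c40, chr19:39812623-39812722, reverse strand: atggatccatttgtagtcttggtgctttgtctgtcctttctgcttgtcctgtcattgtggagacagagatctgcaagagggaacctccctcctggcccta
Cyp2c67, chr19:39648931-39649030, reverse strand: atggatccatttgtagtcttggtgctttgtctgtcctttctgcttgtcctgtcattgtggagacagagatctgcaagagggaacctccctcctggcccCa
Cyp2c69, chr19:39886608-39886707, reverse strand: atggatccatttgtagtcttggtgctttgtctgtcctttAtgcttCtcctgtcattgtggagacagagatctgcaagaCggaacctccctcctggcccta
Cyp2c68, chr19:39740942-39741041, reverse strand: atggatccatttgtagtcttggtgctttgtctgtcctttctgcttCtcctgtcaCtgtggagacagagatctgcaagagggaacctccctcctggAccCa
Cyp2c67 differed from Cyp2c40 at 1 base of this stretch, Cyp2c69 at 3 and Cyp2c68 at 4. Over the whole coding sequence the order was the reverse, with Cyp2c68 98.1%, Cyp2c69 97.9% and Cyp2c67 97.7% identical to Cyp2c40.

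The same stretch of the Cyp2c37/50/54 group is shown for comparison, with capitals for bases that differ from Cyp2c50.
Cyp2c50, chr19:40089700-40089799, forward strand: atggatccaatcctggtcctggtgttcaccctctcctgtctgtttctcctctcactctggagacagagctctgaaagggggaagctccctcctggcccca
Cyp2c37, chr19:39992440-39992539, forward strand: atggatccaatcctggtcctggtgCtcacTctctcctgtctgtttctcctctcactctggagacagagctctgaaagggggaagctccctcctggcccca
Cyp2c54, chr19:40073712-40073811, reverse strand: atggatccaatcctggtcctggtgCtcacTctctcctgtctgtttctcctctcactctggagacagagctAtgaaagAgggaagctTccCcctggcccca
Cyp2c37 differed from Cyp2c50 at 2 bases and Cyp2c54 at 6.

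The reads were 100 bases long, and a read that fits several copies equally well cannot be assigned to one, so the share of 100-base windows found unchanged in transcripts of another gene was measured for each copy. It was 34.4% for Cyp2c40, 35.4% for Cyp2c69 and 19.8% for Cyp2c68, and the partners of all 3 lay within their own group and Cyp2c67. Cyp2c54 shared 7.59% of its windows, Cyp2c50 5.35% and Cyp2c37 4.7%. Cyp2c29 shared 1.36%, with the pseudogene Cyp2c53-ps, whose exons overlap its own by 142 bases. Cyp2c38, Cyp2c39 and Cyp2c44 shared 0 windows. Windows were taken from the C57BL/6J reference, which leaves the DBA/2J transcripts unexamined, and the genome outside annotated transcripts was not searched.

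All 10 genes passed the filter on low counts. Of them, 2 passed as higher in DBA/2J and 6 as lower, at an adjusted p below 0.05 in edgeR's quasi-likelihood test, beside 18.2% of all 15647 tested genes called, 9.29% higher and 8.87% lower. The higher genes were Cyp2c29 and Cyp2c39. The lower genes were Cyp2c38, Cyp2c40, Cyp2c44, Cyp2c50, Cyp2c68 and Cyp2c69, and Cyp2c37 and Cyp2c54 did not pass. The median log2 difference was -1.06 over the 10 genes and 0.01 over all tested genes. Over the 4 other tested Cyp2c symbols it was 1.47, so the median depended on which copies were taken. The CPM values of the strains did not overlap for any of the 10 genes, beside 63.8% of all tested genes without overlap. With either DBA/2J library left out, fewer of the 10 genes were called, and fewer of all tested genes as well. Without C57BL/6J replicate 2, more were called in both. Such fits leave 1 library in a strain, and none of the 10 genes changed direction in them. In bulk liver, fewer cells of a type and less RNA per cell cannot be told apart.

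**Figure D2:**
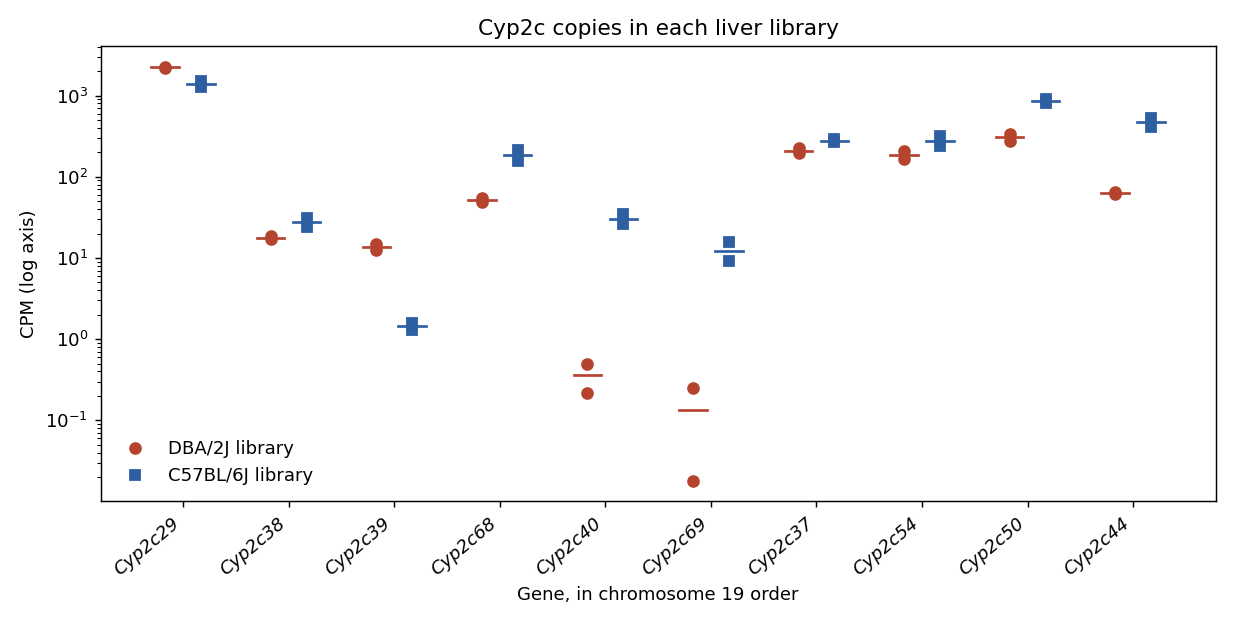
CPM (log axis) of the 10 Cyp2c genes in chromosome 19 order, with 1 point per library, DBA/2J circles left of C57BL/6J squares and short lines at the strain means. Cyp2c29 and Cyp2c39 lie higher in DBA/2J, and Cyp2c40 and Cyp2c69 lie below 0.5 CPM in both DBA/2J libraries.

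Cyp2c29, an arachidonic acid epoxygenase and one of the major P450 enzymes of mouse liver, was the most abundant copy in both strains. It (forward strand) had 105327 and 125766 counts in DBA/2J, which is 2182 and 2273 CPM, and 72703 and 62837 counts in C57BL/6J, which is 1491 and 1259 CPM. Both DBA/2J libraries lay above both C57BL/6J libraries, and the difference was 1.62-fold, or 0.70 ± 0.15 (SE) on the log2 scale (edgeR adjusted p = 0.0311). It did not pass when either DBA/2J library was omitted (edgeR adjusted p = 0.212 in both cases). Per kilobase of exon, Cyp2c29 reached 727.7 CPM in DBA/2J and 449 CPM in C57BL/6J.

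Its close copies Cyp2c38 and Cyp2c39 are 94.2% identical to each other and were called in opposite directions. Cyp2c39 (chr19:39510862-39568529, forward strand), which hydroxylates retinoic acid, had 722 and 698 counts in DBA/2J (15.0 and 12.6 CPM) and 64 and 80 counts in C57BL/6J (1.31 and 1.60 CPM). It was 9.44-fold higher in DBA/2J, 3.24 ± 0.19 on the log2 scale (edgeR adjusted p = 7.26e-04), and the call held with any library left out. Cyp2c38 (chr19:39389556-39463075, reverse strand) had 824 and 1031 counts in DBA/2J (17.1 and 18.6 CPM) and 1530 and 1210 counts in C57BL/6J (31.4 and 24.2 CPM). It was lower in DBA/2J by a log2 difference of -0.64 ± 0.15 (edgeR adjusted p = 0.0373). It did not pass with DBA/2J replicate 1 omitted (edgeR adjusted p = 0.265) or replicate 2 omitted (0.199), with scaling to library totals (0.0541) or with no filter on low counts (0.0886). Per kilobase, Cyp2c39 stood slightly above Cyp2c38 in DBA/2J (7.59 against 6.22 CPM) and far below it in C57BL/6J (0.802 against 9.69 CPM).

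Cyp2c40 and Cyp2c69 had the largest log2 differences among the 10 genes, at low levels in CPM. Cyp2c40 makes 16-hydroxyeicosatetraenoic acid from arachidonic acid and has been described as female-predominant in mouse liver, as has Cyp2c69. Cyp2c40 (chr19:39767071-39812814, reverse strand) had 24 and 12 counts in DBA/2J (0.497 and 0.217 CPM) and 1715 and 1300 counts in C57BL/6J (35.2 and 26.0 CPM). Cyp2c69 (chr19:39842660-39886769, reverse strand) had 12 counts and 1 count in DBA/2J (0.249 and 0.0181 CPM) and 760 and 456 counts in C57BL/6J (15.6 and 9.13 CPM). Both genes were close to absent from the DBA/2J counts and detected in each C57BL/6J library. The log2 difference was -6.44 ± 0.35 for Cyp2c40 (edgeR adjusted p = 6.18e-04) and -6.58 ± 0.63 for Cyp2c69 (edgeR adjusted p = 0.00306), and both calls held with any library left out. The size moved with DBA/2J replicate 1, without which it was -7.14 for Cyp2c40 and -9.25 for Cyp2c69, and with DBA/2J replicate 2, without which it was -5.94 for Cyp2c40 and -5.63 for Cyp2c69.

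In summed counts Cyp2c40 was 87.9-fold lower in DBA/2J, with a 95% counting interval from 63.4 to 126. For Cyp2c69 the ratio was 98.2, from 57.2 to 185. These intervals are exact, cover counting error only and rest on 36 and 13 counts in DBA/2J. Of all tested genes, 31 had a log2 difference at least as low as that of Cyp2c40 and 29 as low as that of Cyp2c69, each count including the gene itself.

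Cyp2c68 (chr19:39688834-39741054, reverse strand) was also lower in DBA/2J, at a smaller log2 difference. It had 2646 and 2740 counts in DBA/2J (54.8 and 49.5 CPM) and 10561 and 7739 counts in C57BL/6J (217 and 155 CPM). It was 3.56-fold lower in DBA/2J, with a log2 difference of -1.83 ± 0.17 (edgeR adjusted p = 0.00278). With DBA/2J replicate 1 omitted the edgeR adjusted p was 0.0547 (log2 difference -1.92), and with replicate 2 omitted it was 0.0602 (-1.77).

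The neighbouring copy Cyp2c67 (chr19:39608842-39649051, reverse strand) went the other way. It had 31200 and 29610 counts in DBA/2J (646 and 535 CPM) and 9911 and 9213 counts in C57BL/6J (203 and 185 CPM). It was 3.05-fold higher in DBA/2J, 1.61 ± 0.13 on the log2 scale (edgeR adjusted p = 0.00174), a call that held with any library left out. The sum of Cyp2c40, Cyp2c68 and Cyp2c69 averaged 52.7 ± 4.12 CPM in DBA/2J and 229 ± 54.6 CPM in C57BL/6J (SD, n = 2 each), 4.34-fold lower in DBA/2J (edgeR adjusted p = 0.00205, and 0.0505 without DBA/2J replicate 2). With Cyp2c67 added, an alternative chosen after its counts were seen, the sum averaged 643 ± 82.9 CPM in DBA/2J and 423 ± 67.8 CPM in C57BL/6J.

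That 4-copy sum stood higher in DBA/2J, with a log2 difference of 0.61 ± 0.15 (edgeR adjusted p = 0.0478), so the direction of the group depended on whether Cyp2c67 was counted in it. It did not pass with DBA/2J replicate 1 omitted (edgeR adjusted p = 0.315) or replicate 2 omitted (0.156), with RLE scaling (0.0539), with the older quasi-likelihood form (0.0506) or with no filter (0.0918). How reads of these copies from DBA/2J were placed on a C57BL/6J reference was not tested.

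**Figure D3:**
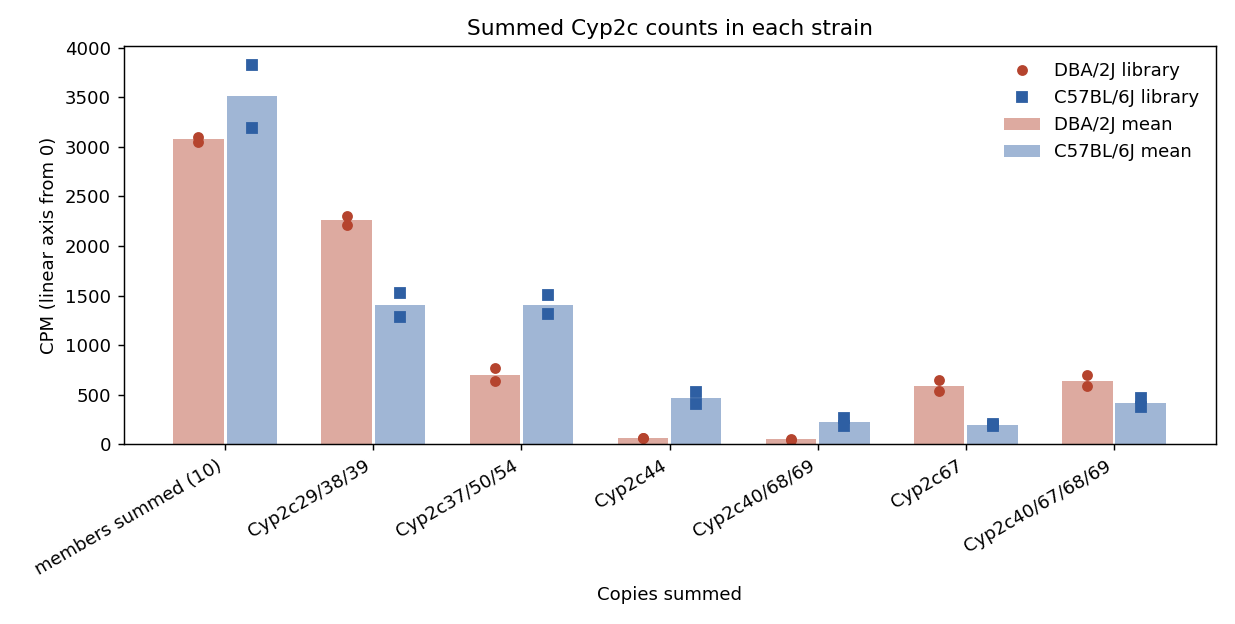
Summed CPM (linear axis from 0) of all 10 Cyp2c genes, of the groups of close copies, of Cyp2c67 and of Cyp2c40/67/68/69 together, with bars for strain means, points for libraries and DBA/2J left of C57BL/6J. Cyp2c40/68/69 is lower in DBA/2J and the same sum with Cyp2c67 is higher.

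The upstream sequences of this group were also close, though less so than the coding sequences for every pair but Cyp2c40 and Cyp2c69. RefSeq windows (GRCm38.p6) from 250 bases before to 50 bases after the annotated start were found for 8 of the 10 genes. The windows of Cyp2c40 and Cyp2c69 were 98.9% identical over 270 aligned bases, and that of Cyp2c67 was 93.2% identical to Cyp2c40 over 220 bases. The least alike pair, Cyp2c67 and Cyp2c68, was 90.6% identical over 254 bases. These windows are printed because Cyp2c67 and the other copies have similar upstream sequences in C57BL/6J and were called in opposite directions. Capitals mark CAAAGTC, the core of the CAAAGTCCA motif recognised by HNF4 alpha, searched on both strands.
Cyp2c40, chr19:39812765-39813064, reverse strand: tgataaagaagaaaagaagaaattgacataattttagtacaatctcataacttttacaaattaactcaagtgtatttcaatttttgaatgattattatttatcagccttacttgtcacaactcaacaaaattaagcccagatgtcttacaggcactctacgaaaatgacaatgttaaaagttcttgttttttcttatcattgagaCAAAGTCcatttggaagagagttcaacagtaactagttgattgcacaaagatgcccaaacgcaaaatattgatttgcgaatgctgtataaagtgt
Cyp2c69, chr19:39886720-39887019, reverse strand: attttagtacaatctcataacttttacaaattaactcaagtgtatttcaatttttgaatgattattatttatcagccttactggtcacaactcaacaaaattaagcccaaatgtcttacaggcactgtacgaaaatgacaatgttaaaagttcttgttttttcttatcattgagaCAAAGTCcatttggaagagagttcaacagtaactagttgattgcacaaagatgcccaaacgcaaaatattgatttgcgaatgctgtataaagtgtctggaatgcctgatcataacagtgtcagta
Cyp2c68, chr19:39741052-39741351, reverse strand: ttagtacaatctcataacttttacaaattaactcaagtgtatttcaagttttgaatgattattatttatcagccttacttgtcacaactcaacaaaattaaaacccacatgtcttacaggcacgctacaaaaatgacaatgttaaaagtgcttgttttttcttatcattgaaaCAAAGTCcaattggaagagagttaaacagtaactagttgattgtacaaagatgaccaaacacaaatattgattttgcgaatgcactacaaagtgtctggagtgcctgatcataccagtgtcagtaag
Cyp2c67, chr19:39648993-39649292, reverse strand: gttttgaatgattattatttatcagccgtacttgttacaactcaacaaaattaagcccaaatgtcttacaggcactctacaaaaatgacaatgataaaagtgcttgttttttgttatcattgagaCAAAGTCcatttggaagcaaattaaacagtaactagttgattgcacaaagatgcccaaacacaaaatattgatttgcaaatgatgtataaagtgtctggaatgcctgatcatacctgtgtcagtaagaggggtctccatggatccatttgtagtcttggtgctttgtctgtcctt
All 4 windows held the core once, as part of the full motif CAAAGTCCA. The core starts 45 bases before the annotated start in Cyp2c40, 75 in Cyp2c69, 77 in Cyp2c68 and 125 in Cyp2c67, so the annotated starts of these copies are offset from one another. Cyp2c54 and Cyp2c44 had no window.

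The Cyp2c38 and Cyp2c39 windows, which were 83.0% identical, are shown for another pair of close copies called in opposite directions. Cyp2c29 and Cyp2c38, whose windows were 75.3% identical, were also called in opposite directions, and the Cyp2c29 window is not printed.
Cyp2c39, chr19:39510572-39510871, forward strand: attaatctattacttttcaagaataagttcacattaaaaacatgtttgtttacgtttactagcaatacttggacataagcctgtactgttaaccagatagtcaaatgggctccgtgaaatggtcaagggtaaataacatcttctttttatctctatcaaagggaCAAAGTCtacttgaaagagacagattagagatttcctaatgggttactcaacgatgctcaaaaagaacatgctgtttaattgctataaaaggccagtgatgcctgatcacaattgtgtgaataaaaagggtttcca
Cyp2c38, chr19:39463026-39463325, reverse strand: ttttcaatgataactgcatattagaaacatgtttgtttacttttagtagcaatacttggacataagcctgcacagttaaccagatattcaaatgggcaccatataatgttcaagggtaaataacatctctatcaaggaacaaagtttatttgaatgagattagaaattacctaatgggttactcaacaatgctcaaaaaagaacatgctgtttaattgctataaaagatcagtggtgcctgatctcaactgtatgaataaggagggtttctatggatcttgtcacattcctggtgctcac
Cyp2c39 held the core and Cyp2c38 did not. Cyp2c39 has a second annotated start further upstream, whose window also held it. Of the 9 windows, which cover 8 of the 10 genes, 7 held the core and 3 the full motif. The shares were 4.44% and 0.475% of all 32851 windows of this length. Other patterns searched were also more frequent, TATAAA in 5 of the 9 against 13.6% and the C/EBP pattern TTGCNNAA in 3 against 10.8%. Windows of close copies resemble one another, so the 9 are not independent. The STAT5 pattern TTCNNNGAA was found in 0 of the 9 windows and in 8.3% of all windows. These letters come from the C57BL/6J reference and say nothing of the DBA/2J alleles.

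In the Cyp2c37/50/54 group, Cyp2c50 passed as lower in DBA/2J and the other copies did not pass. Cyp2c50 (forward strand), which oxidises arachidonic and linoleic acid, had 16112 and 15247 counts in DBA/2J (334 and 276 CPM) and 43899 and 40304 counts in C57BL/6J (900.4 and 807 CPM). The strains were well apart, and the gene was 2.80-fold lower in DBA/2J, -1.49 ± 0.13 on the log2 scale (edgeR adjusted p = 0.00255). With DBA/2J replicate 2 omitted the edgeR adjusted p was 0.0511.

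Cyp2c37 (chr19:39992424-40012243, forward strand), which makes 12-hydroxyeicosatetraenoic acid, had 228 and 194 CPM in DBA/2J and 291 and 267 CPM in C57BL/6J. Its log2 difference was -0.40, with a 95% interval from -0.68 to -0.13 before adjustment and an edgeR adjusted p of 0.0572. Cyp2c54 (chr19:40037941-40073811, reverse strand) had 206 and 167 CPM in DBA/2J and 316 and 237 CPM in C57BL/6J, a log2 difference of -0.57 with a 95% interval from -0.99 to -0.15 (edgeR adjusted p = 0.0721). Neither passed the threshold, although the libraries of the strains did not overlap. Both passed with C57BL/6J replicate 2 omitted (edgeR adjusted p = 0.0185 for Cyp2c37 and 0.00322 for Cyp2c54) and in DESeq2 (adjusted p = 0.0226 for Cyp2c37 and 0.0116 for Cyp2c54). The 3 copies stood at almost the same level per kilobase in DBA/2J, 105 CPM for Cyp2c54, 104 for Cyp2c50 and 115 for Cyp2c37. In C57BL/6J Cyp2c50 stood at 293 CPM per kilobase, against 156 for Cyp2c54 and 153 for Cyp2c37. Their sum averaged 702 ± 92.4 CPM in DBA/2J and 1409 ± 139 CPM in C57BL/6J (SD, n = 2 each), 2.01-fold lower in DBA/2J (edgeR adjusted p = 0.0111). It did not pass with DBA/2J replicate 1 omitted (edgeR adjusted p = 0.0937) or replicate 2 omitted (0.130).

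Cyp2c44 (reverse strand), an arachidonic acid epoxygenase that lies apart from the cluster, had no close copy and no shared window. It had 3094 and 3383 counts in DBA/2J (64.1 and 61.1 CPM) and 25707 and 20342 counts in C57BL/6J (527 and 407 CPM). It was 7.46-fold lower in DBA/2J, with a log2 difference of -2.90 ± 0.15 (edgeR adjusted p = 5.52e-04), and the call held with any library left out. Scd1, a fatty acid desaturase gene within 500 kb of it, was also lower (-1.69, edgeR adjusted p = 0.0162), whereas Erlin1 (0.43, edgeR adjusted p = 0.0178) and Cpn1 (0.44, edgeR adjusted p = 0.0352) were higher. The other tested neighbours did not pass, out of 14, and these 3 did not pass when either DBA/2J library was omitted.

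Summed over the 10 genes, the counts came to 3101 and 3051 CPM in DBA/2J and 3826 and 3193 CPM in C57BL/6J. As shares of all counts, without TMM scaling, they were 0.311% and 0.321% in DBA/2J and 0.371% and 0.312% in C57BL/6J. These shares overlapped between the strains, whereas the TMM-scaled CPM did not. The summed log2 difference was -0.19, with a 95% interval from -0.64 to 0.26 (edgeR adjusted p = 0.504). An exact two-sided permutation test of the summed CPM gave p = 0.3333, the smallest that 2 against 2 libraries allow. The copies that differed most in CPM were Cyp2c29, higher in DBA/2J by 853 CPM, Cyp2c50, with a DBA/2J minus C57BL/6J difference of -549 CPM, and Cyp2c44, with -405 CPM. Over all 16 Cyp2c symbols of the files, a sum added after the counts were seen, the means were 4296 ± 212 CPM in DBA/2J and 4499 ± 525 CPM in C57BL/6J (SD, n = 2 each; log2 difference -0.07, edgeR adjusted p = 0.841).

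With counts divided by exon length, Cyp2c29 made up 62.3% and 66.998% of the summed level in DBA/2J and 31.6% and 32.3% in C57BL/6J. Cyp2c44 made up 2.60% and 2.56% in DBA/2J and 15.8% and 14.8% in C57BL/6J. The share of Cyp2c50 was 9.997% and 8.52% in DBA/2J and 20.02% and 21.7% in C57BL/6J. Cyp2c37 took a similar share in both strains, 10.9% and 9.59% in DBA/2J and 10.3% and 11.5% in C57BL/6J. The order of mean levels per kilobase in DBA/2J was Cyp2c29, Cyp2c37, Cyp2c54, Cyp2c50, Cyp2c68, Cyp2c44, Cyp2c39, Cyp2c38, Cyp2c40 and Cyp2c69. In C57BL/6J it was Cyp2c29, Cyp2c50, Cyp2c44, Cyp2c54, Cyp2c37, Cyp2c68, Cyp2c40, Cyp2c38, Cyp2c69 and Cyp2c39. In DBA/2J the libraries overlapped between Cyp2c37, Cyp2c54 and Cyp2c50, between Cyp2c68 and Cyp2c44, and between Cyp2c40 and Cyp2c69. In C57BL/6J they overlapped between Cyp2c54 and Cyp2c37 and between Cyp2c38 and Cyp2c69.

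**Figure D4:**
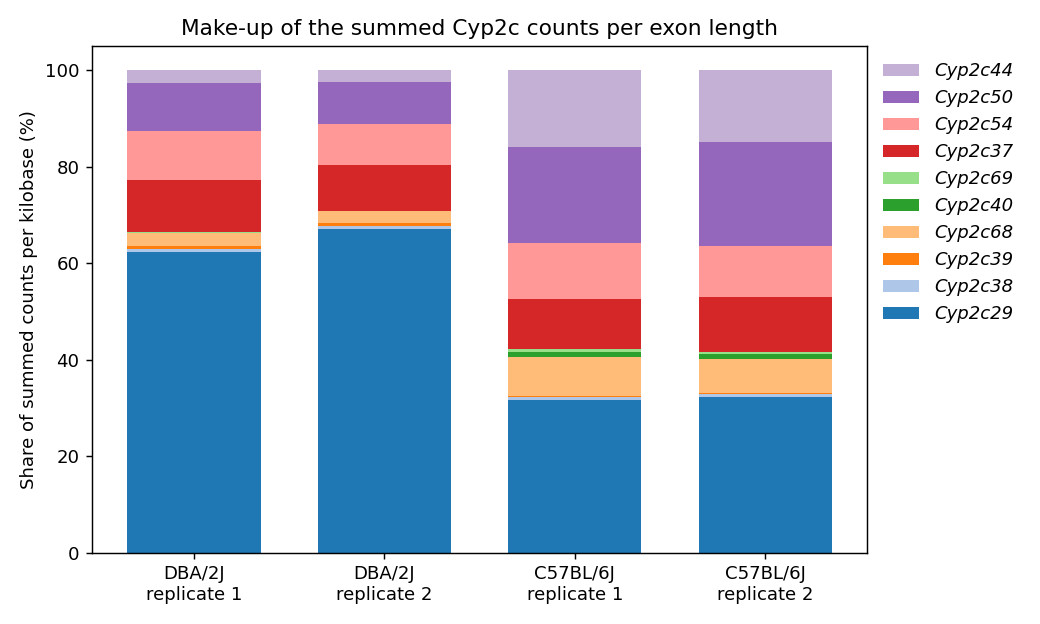
Share of each copy in the summed counts per kilobase of exon (%), with 1 stacked bar per library and the DBA/2J libraries left of the C57BL/6J libraries. Cyp2c29 fills over 60% of both DBA/2J bars and under 33% of both C57BL/6J bars, and Cyp2c44 is the thin top layer in DBA/2J.

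Of the 6 other Cyp2c symbols, 4 were tested, of which 3 were higher in DBA/2J and 0 lower. These were Cyp2c67 (above), Cyp2c55, with 33.5 and 30.1 CPM in DBA/2J and 14.8 and 10.5 CPM in C57BL/6J (1.33 ± 0.18 on the log2 scale, edgeR adjusted p = 0.00893), and the pseudogene Cyp2c53-ps (2.34 ± 0.41, edgeR adjusted p = 0.0174). Cyp2c55 and Cyp2c53-ps did not pass when either DBA/2J library was omitted (edgeR adjusted p from 0.0897 to 0.162), and Cyp2c53-ps stood at 2.97 with C57BL/6J replicate 2 omitted. Cyp2c70, which makes muricholic acids, had 659 and 526 CPM in DBA/2J and 826 and 739 CPM in C57BL/6J and was not called (-0.40, edgeR adjusted p = 0.109). Cyp2c65 and Cyp2c66 had 3 to 7 counts in DBA/2J and 0 to 2 in C57BL/6J and were not tested.

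**Figure D5:**
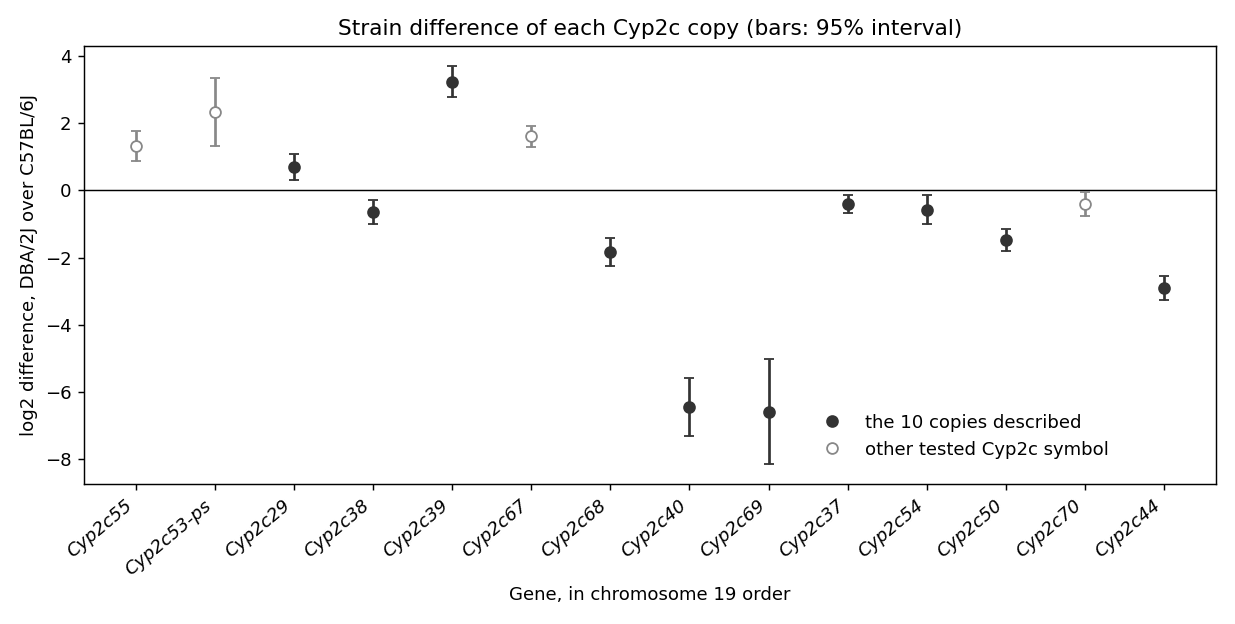
Log2 difference (DBA/2J over C57BL/6J) of the 14 tested Cyp2c symbols in chromosome 19 order, with 95% intervals as bars, filled points for the 10 genes and open points for the other symbols. Values lie above 0 from Cyp2c55 to Cyp2c67 except Cyp2c38, and below 0 from Cyp2c68 to Cyp2c44.

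Along the cluster, every tested Cyp2c symbol from Cyp2c55 to Cyp2c67 except Cyp2c38 had a positive log2 difference. From Cyp2c68 to Cyp2c70 each had a negative one, of which Cyp2c37, Cyp2c54 and Cyp2c70 did not pass. Cyp2c44, which lies apart from the cluster, was negative as well. Among genes within 500 kb of the cluster, Pdlim1, which encodes a PDZ and LIM domain protein, was lower (-0.69 ± 0.10, edgeR adjusted p = 0.0121). It did not pass when either DBA/2J library was omitted.

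Among the electron donors and epoxide hydrolases that work with these enzymes, 0 of 7 were higher and 2 lower. That is 28.6% called, beside 18.2% of all tested genes. Por, which passes electrons to every microsomal P450, had 214 and 231 CPM in DBA/2J and 410.3 and 429.5 CPM in C57BL/6J, a log2 difference of -0.91 ± 0.09 (edgeR adjusted p = 0.00324). Cyb5a had 668 and 623 CPM in DBA/2J and 947 and 917 CPM in C57BL/6J (-0.53 ± 0.10, edgeR adjusted p = 0.0243). Ephx2, the soluble epoxide hydrolase that removes arachidonic acid epoxides, did not pass (-0.23, edgeR adjusted p = 0.3333). Neither Por nor Cyb5a passed when either DBA/2J library was omitted.

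Of 16 transcription regulators of the family, 2 were higher and 2 lower, with a median log2 difference of 0.09. That is 25% called, beside 18.2% of all tested genes. Nr3c1, the glucocorticoid receptor gene, was higher (0.52 ± 0.08, edgeR adjusted p = 0.0135), as was the coactivator gene Ppargc1a (0.91, edgeR adjusted p = 0.0326). Nr1i2, which encodes PXR, was lower (-0.46 ± 0.09, edgeR adjusted p = 0.0203), as was Cebpb (-1.54 ± 0.31, edgeR adjusted p = 0.0247). Nr1i3, which encodes CAR, stood at -0.36 (edgeR adjusted p = 0.134) and Hnf4a at -0.14 (edgeR adjusted p = 0.446), neither past the threshold. Of 14 tested CAR and PXR target genes (35.7% called), 3 were higher and 2 lower. Among them were Cyp3a13 (-2.07, edgeR adjusted p = 5.56e-04) and Cyp3a25 (0.96, edgeR adjusted p = 0.0113). Cyp2b10, the classical CAR target, had 7.65 and 5.35 CPM in DBA/2J and 5.11 and 7.89 CPM in C57BL/6J, which overlap. With no filter 1 regulator was higher and 0 lower. With either DBA/2J library omitted, 0 regulators and 1 target gene were called, and with C57BL/6J replicate 2 omitted 5 regulators were higher.

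Since Cyp2c40 and Cyp2c69 are known as female-predominant, sex-biased liver genes were read beside them, all samples being male. Of 12 tested female-biased genes, 4 passed as higher in DBA/2J and 2 as lower, with a median log2 difference of 0.94. That is 50% called, and 38.9% of the male-biased genes below were called, beside 18.2% of all tested genes. Cyp3a41a had 213 and 407 counts in DBA/2J and 3 and 6 in C57BL/6J (5.98 on the log2 scale, edgeR adjusted p = 0.0020), and Fmo2 stood at 2.29 (edgeR adjusted p = 6.84e-04). Cyp4a14 (-3.40, edgeR adjusted p = 0.00747) and Rtn4 (-1.54, edgeR adjusted p = 0.00228) were lower. Of 18 male-biased genes, 4 were higher and 3 lower, among them Serpina1e (-4.30, edgeR adjusted p = 8.04e-04), Ugt2b38 (-2.18, edgeR adjusted p = 0.00278), Mup20 (-1.83, edgeR adjusted p = 0.0156) and Moxd1 (3.91, edgeR adjusted p = 0.0233). Close copies of Serpina1e, Ugt2b38 and Mup20 can share reads. Cyp3a41b, by name a copy of Cyp3a41a, had 1 count in DBA/2J replicate 1, 0 in each other library, and was not tested. The male-biased count of higher genes was 7 with library totals or in DESeq2 and 1 with no filter. Stat5b, which carries the growth hormone signal to sex-biased liver genes, was higher (0.40, edgeR adjusted p = 0.0387). Stat5b did not pass with no filter or with either DBA/2J library omitted. With either DBA/2J library omitted, 2 female-biased genes were higher and 2 lower, and 0 male-biased genes were higher and 2 lower.

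Liver zone markers were read because several Cyp2c genes are stronger around the central vein. Of 14 pericentral markers, 0 were higher and 2 lower, namely Glul (-0.46, edgeR adjusted p = 0.0332) and Oat (-0.96, edgeR adjusted p = 0.0367). That is 14.3% called, beside 18.2% of all tested genes. The 14 pericentral markers summed to 9117 to 10482 CPM in DBA/2J and 10195 to 10319 CPM in C57BL/6J. Of 12 periportal markers (8.33% called) 1 was lower, Ctsc (-0.78, edgeR adjusted p = 0.0415). The 12 summed to 15317 to 16165 CPM in DBA/2J and 12692 to 15718 CPM in C57BL/6J. Periportal genes called higher numbered 3 with library totals and 6 with C57BL/6J replicate 2 omitted. The 6 cholangiocyte markers summed to 24.1 to 24.7 CPM in DBA/2J and 49.9 to 76.8 CPM in C57BL/6J, with Spp1 lower (-1.86, edgeR adjusted p = 0.00474). Spp1 alone had 13.6 and 14.4 CPM in DBA/2J and 61.8 and 40.4 CPM in C57BL/6J, so it made up most of that gap, while Krt19 (0.56) and Krt7 (0.41) had positive log2 differences that did not pass. In addition, the 7 Kupffer cell markers summed to 108 to 114 CPM in DBA/2J and 96.9 to 122 CPM in C57BL/6J, with Marco lower (-2.97, edgeR adjusted p = 0.0238). The 7 stellate cell markers summed to 226 to 272 CPM in DBA/2J and 130 to 185 CPM in C57BL/6J, with Reln higher (1.30, edgeR adjusted p = 0.00453), and the 7 sinusoidal endothelial markers to 191 to 233 CPM in DBA/2J and 169.8 to 213 CPM in C57BL/6J, with Lyve1 lower (-1.16, edgeR adjusted p = 0.0177) and Stab2 higher (0.40, edgeR adjusted p = 0.0420). The 6 neutrophil markers summed to 0.343 to 0.725 CPM in DBA/2J and 0.260 to 6.13 CPM in C57BL/6J. Acute phase genes, which rise in inflammation, summed to 16197 to 18954 CPM in DBA/2J and 21032 to 36283 CPM in C57BL/6J, where replicate 1 was the highest. Of 14, Hamp, Orm1 and Crp were lower and Apcs higher (edgeR adjusted p from 0.00835 to 0.0376), and with C57BL/6J replicate 2 omitted 11 were lower. With either DBA/2J library omitted, 0 genes of the zone, cell type and acute phase lists passed, in either direction. In the acute phase sum C57BL/6J replicate 2 also stood above both DBA/2J libraries. The part of these cells and genes in the Cyp2c differences was not tested.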

How the data were processed

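Per the file headers, the authors made whole-number counts per gene name by featureCounts 2.0.1, from exons annotated in Ensembl release 88 for GRCm38. The submitters' processing notes name STAR 2.4.0g1 and featureCounts 1.5.2 with mm10. The deposited counts are not normalised. The header carries no option to use strand or to count reads with several alignments. Reads were 100 bases long and single-end per the labels, although the header carries the paired-end option.

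Counts were tested with edgeR 4.0.16 (R 4.3.3), quasi-likelihood F test with legacy=FALSE, TMM scaling, filterByExpr with a minimum count of 10 and strain as the sole term. P-values were Benjamini-Hochberg adjusted over all tested genes, and 0.05 was the threshold. A positive log2 value means higher in DBA/2J. Sums replaced their copies in the whole table, with library sizes and TMM factors unchanged. The fit was checked on simulated data. Coding sequences and 100-base windows came from GENCODE M21 transcripts (GRCm38), promoters from RefSeq.

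The members and lists were chosen with earlier results of these data known. Named were the 10 genes, the other Cyp2c symbols, up to 4 per list by adjusted p, called flanking genes and genes that describe small counts. Nr1i3, Hnf4a, Cyp2b10, Krt19 and Krt7 were named after their values were seen. The alternatives were DESeq2 1.42.0, RLE scaling, library totals, no filter, the older quasi-likelihood form, each library left out and the replicate number as a block. Same-numbered libraries did not deviate together (r = 0.05 over tested genes), and no label pairs them. Some results on listed and flanking genes are not reported here.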

Additional observations from a re-analysis of the deposited data

How the results depend on the processing

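Cyp2c39, Cyp2c40, Cyp2c44 and Cyp2c69 kept their direction and their call in each alternative run. Of all 10 genes, none changed direction in any alternative. With 1 library left out in turn, the number of the 10 genes called ranged from 4 to 10. The log2 difference ranged from -0.32 to -0.06 for the 10-gene sum, from 0.57 to 0.81 for Cyp2c29/38/39, from -1.16 to -0.88 for Cyp2c37/50/54, from -2.35 to -1.86 for Cyp2c40/68/69, from -3.08 to -2.71 for Cyp2c44, from 0.45 to 0.77 for Cyp2c40/67/68/69 and from -0.18 to 0.05 for all Cyp2c symbols. The sum of all Cyp2c symbols, not called in any setting, turned to 0.013 with library totals and to 0.052 without C57BL/6J replicate 1. The Cyp2c40/67/68/69 sum was no longer called with the older quasi-likelihood form (0.61), RLE scaling (0.60) and no filter (0.61). The cause was not tested. Without the filter 1516 genes were called in the whole table, against 2842 with it. It was 292 and 313 without DBA/2J replicates 1 and 2, and 4905 without C57BL/6J replicate 2. With the replicate block, 10 of the 10 genes were called and the 10-gene sum stood at -0.18. The replicate numbers are names only. Counts of 13 to 36 in DBA/2J limit the precision of Cyp2c69 and Cyp2c40.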
